A study of Rattus norvegicus with 16 samples.

Results

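Every muscle fibre keeps its sodium low and its potassium high with the sodium pump, and 7 genes that serve or draw on that gradient were followed here in an eye muscle and a leg muscle of the rat. They are the sodium pump beta subunits Atp1b1 and Atp1b2, the pump regulators Fxyd1 and Fxyd6, the sodium-calcium exchangers Slc8a1 and Slc8a3, and the potassium-dependent sodium-calcium exchanger Slc24a2. Members were chosen by gene symbol: all probe sets whose array annotation gives one of these symbols, which were 11 of the 31099 on the array. Of these, 8 probe sets passed the filter on low values (above the median of the array on at least 4 of 16 arrays), and all 7 genes had at least 1 of them, among 10416 genes tested. The muscles were the rectus extraocular muscles (EOM), still attached to the globe when frozen, and the tibialis anterior (TA) of 4 rats, numbered 15, 25, 27 and 29, for which the labels give no strain, age, sex or treatment. From 10 µm sections stained for acetylcholinesterase, about 1000 neuromuscular junctions and an equal amount of fibre away from junctions were cut out by laser from each muscle. This gave the groups EOM_fiber, EOM_synapse, TA_fiber and TA_synapse, with 4 arrays each, 1 per rat. Nothing in the labels says that a capture was limited to muscle: at a junction it can also take the nerve terminal, its Schwann cells and connective tissue, and the EOM captures come from 4 rectus muscles.

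The sodium pump exports sodium and imports potassium at the cost of ATP. Its alpha subunit does the transport, its beta subunit is needed for the alpha subunit to fold and reach the membrane, and small FXYD proteins bind the complex and tune its affinity and rate. Muscle leans on the pump to restore the gradients after each action potential, and eye muscles are active almost without pause. Exchangers of the Slc8 family let sodium run in to carry calcium out of the cell, and those of the Slc24 family use the potassium gradient as well, so the calcium they remove is paid for by the pump.

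The sequences just upstream of the RefSeq transcription start (assembly GRCr8) are shown for 3 members that stand for the 3 patterns described below: Atp1b2 was lower in EOM, Fxyd6 higher in EOM, and Slc24a2 high only in the junction captures of EOM. Each run is the 250 bases before the start, 5′ to 3′ on the strand of the gene, with capitals marking matches to the E-box CANNTG, which bHLH factors such as the myogenic factors bind.
Atp1b2, chr10:54823709-54823958, minus strand: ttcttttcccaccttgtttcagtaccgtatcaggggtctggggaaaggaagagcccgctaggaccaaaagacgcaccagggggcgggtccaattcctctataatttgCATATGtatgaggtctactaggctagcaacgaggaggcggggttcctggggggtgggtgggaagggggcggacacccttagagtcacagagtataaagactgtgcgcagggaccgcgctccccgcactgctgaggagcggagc
Fxyd6, chr8:54575575-54575824, plus strand: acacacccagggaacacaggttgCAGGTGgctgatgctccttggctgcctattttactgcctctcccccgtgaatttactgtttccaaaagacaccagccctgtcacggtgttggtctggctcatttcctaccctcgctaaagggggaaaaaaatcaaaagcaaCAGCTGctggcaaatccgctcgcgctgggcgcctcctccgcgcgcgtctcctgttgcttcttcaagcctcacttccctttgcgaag
Slc24a2, chr5:106787781-106788030, minus strand: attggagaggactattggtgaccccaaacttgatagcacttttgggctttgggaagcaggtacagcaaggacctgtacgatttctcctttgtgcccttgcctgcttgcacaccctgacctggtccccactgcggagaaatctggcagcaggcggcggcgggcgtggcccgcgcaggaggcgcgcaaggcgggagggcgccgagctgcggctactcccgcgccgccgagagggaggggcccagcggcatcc
The table gives 1 start per gene, and 247 of the 250 bases for Fxyd6 and 30 of those for Slc24a2 lie inside the outer bounds of the gene, so other transcripts start further upstream. The E-box was found 1 time for Atp1b2, 2 times for Fxyd6 and 0 times for Slc24a2, on a palindromic pattern that reads the same on both strands, and 65.5% of 33465 promoters of this length hold at least 1. The N-box core CCGGAA, searched on both strands because it lies in promoters of junction genes, was found in none of the 3, nor in Fxyd1, Slc8a1 or Slc8a3, and in 12.6% of all promoters. Of the other patterns searched on both strands, TATAAA was found 1 time for Atp1b2 (12.9% of all promoters), GGGCGG 2 times for Atp1b2 (30.5%) and the MEF2 pattern in none of the 6 members with an entry (2.96%). The GC content was 58% for Atp1b2, 55.2% for Fxyd6 and 65.2% for Slc24a2, against a median of 51.2% over all promoters. A match is a string of letters and was not tested as a binding site.

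The values below are quantile-normalized log2(intensity + 16), on which the median of each array lies at 5.88, group values are means ± SD over 4 arrays, and differences are log2 ± SE from limma. A difference was called when its p-value, adjusted by the Benjamini-Hochberg method over all 10416 genes, was under 0.05. The pseudocount makes the folds of dim genes too small, and fewer cells of a type cannot be told apart from less RNA per cell in such captures. The deposited arrays had a trimmed mean intensity of 150.06 to 150.08 and medians of 33.4 to 57.0, and arrays of a group correlated at 0.867 to 0.949. EOM_fiber 15, TA_synapse 27 and TA_fiber 25 had the highest medians. The defining genes followed the labels: the extraocular myosin Myh13 differed by 8.58 ± 0.33 between the fibre groups, and the receptor subunit Chrne rose at the junction by 6.36 ± 0.32 in EOM and by 6.03 ± 0.32 in TA (limma, adjusted p = 3.48e-09, 1.07e-07 and 4.77e-08). Of 12 junction genes listed 10 were tested, and 8 of 10 rose at the junction in each muscle, with none called lower. Between the fibre groups 5 of 10 were higher in EOM, most of all Chrna1, at 8.96 in EOM_fiber and 5.43 in TA_fiber. The junction difference of EOM was below that of TA for 2 of 10, Chrna1 (-2.89) and Lrp4 (-1.75). How much junction RNA the EOM_fiber captures held was not tested.

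The muscle of origin separated these genes more often than the junction did. Away from junctions, Atp1b1, Fxyd6 and Slc8a1 were higher and Atp1b2 and Slc8a3 lower in EOM, which is 5 of 7 members called, where 15.6% of all genes tested were called (8.4% higher and 7.15% lower). Slc8a3 passed the filter only through TA_fiber, the group where it was high, so its calls here and within TA are not independent of the filter. Between the junctions 6 of 7 members were called, Atp1b1, Fxyd1, Fxyd6, Slc8a1 and Slc24a2 higher and Atp1b2 lower in EOM, where 16.4% of all genes were called (7.82% higher and 8.61% lower). The median size of the difference was 1.23 over the 7 members and 0.36 over all genes in fibre, and 1.56 and 0.37 at the junction. The member median in fibre is the value of Slc8a3 itself. The 2 groups compared did not overlap for 4 of 7 members in fibre and 5 of 7 at the junction, and for 16.4% and 22.8% of all genes. Called in both regions with the same sign were Atp1b1, Atp1b2, Fxyd6 and Slc8a1, 4 of 7 members, against 8.02% of all genes. Within EOM, 1 of 7 members differed between junction and fibre, Slc24a2, which was higher at the junction, and 10.1% of all genes did (5.62% higher and 4.51% lower). Within TA, 2 of 7 did, Fxyd6 higher and Slc8a3 lower at the junction, where 10.2% of all genes were called (6.7% higher and 3.53% lower). The interaction, which is how far the junction difference of EOM exceeds that of TA, was called for Slc24a2 only, higher, 1 of 7, and for 0.922% of all genes (0.259% higher and 0.662% lower). The members were chosen with earlier results of these data known, so these shares describe the 7 genes and say nothing of the families they come from.

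**Figure D1:**
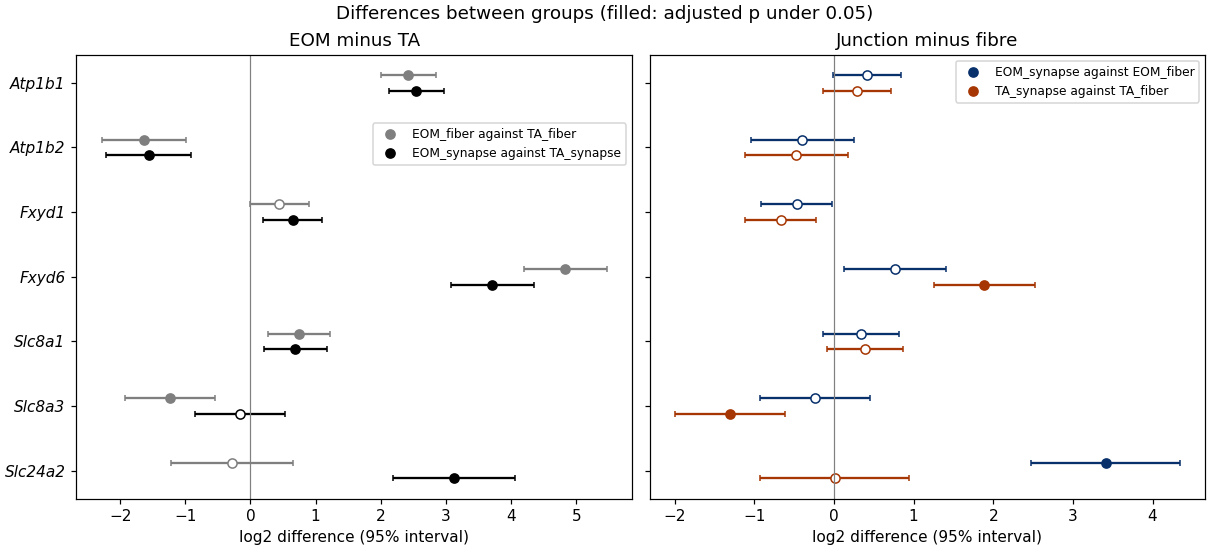
Log2 difference of each member with its 95% interval (points and bars), EOM minus TA on the left and junction minus fibre on the right; filled points have an adjusted p under 0.05. On the left Atp1b1 and Fxyd6 lie above 2 and Atp1b2 lies below -1 in both regions, while on the right only Slc24a2 in EOM and Fxyd6 and Slc8a3 in TA are filled.

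The beta subunits moved in opposite directions between the muscles. Atp1b1, the widespread beta subunit, was at 13.62, 13.46, 13.65 and 13.54 in EOM_fiber of rats 15, 25, 27 and 29 and at 11.27, 10.58, 11.53 and 11.19 in TA_fiber. Every EOM array lay above every TA array, and the same held at the junction, where EOM_synapse read 13.80, 14.00, 14.14 and 13.98 and TA_synapse 11.49, 11.44, 11.78 and 11.03. The difference was 2.42 ± 0.20 in fibre and 2.54 ± 0.20 at the junction, or 5.36-fold and 5.83-fold (limma, adjusted p = 6.96e-06 and 2.47e-06, with the sign in 4 of 4 rats). As deposited, the intensity of this probe set was 11063 to 16917 in EOM_fiber and 1542 to 3478 in TA_fiber. A second, dimmer Atp1b1 probe set gave 2.10 ± 0.28 and 2.43 ± 0.28 for the same comparisons. Between junction and fibre Atp1b1 differed by 0.41 ± 0.20 in EOM, higher in 4 of 4 rats with groups that did not overlap, and by 0.29 ± 0.20 in TA, higher in 3 of 4, and neither passed the threshold (limma, adjusted p = 0.215 and 0.42). The EOM value turned to -0.08 on values as deposited. Non-overlapping groups were seen for 17.1% of all genes in that comparison. The order of the groups on the brighter probe set was thus EOM_synapse, EOM_fiber, TA_synapse and TA_fiber, of which only the TA pair overlapped. On the dimmer probe set the junction minus fibre difference was 0.16 ± 0.28 in EOM and -0.17 ± 0.28 in TA. Neither was called, the groups overlapped in both muscles, and TA_fiber (9.02) lay above TA_synapse (8.84).

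Atp1b2, a beta subunit first described as an adhesion molecule on glia and also made by muscle, ran the other way. It was at 7.45, 7.18, 7.67 and 6.82 in EOM_fiber and at 8.24, 9.84, 8.78 and 8.80 in TA_fiber. At the junction it was at 6.79, 7.07, 6.52 and 7.14 in EOM_synapse and at 8.38, 8.18, 8.75 and 8.47 in TA_synapse. All TA arrays lay above all EOM arrays, and the highest of the 16 was TA_fiber of rat 25. The differences were -1.64 ± 0.30 in fibre and -1.56 ± 0.30 at the junction, 3.11-fold and 2.96-fold lower in EOM (limma, adjusted p = 0.00241 and 0.00291, 4 of 4 rats). Those between junction and fibre were -0.40 ± 0.30 in EOM and -0.47 ± 0.30 in TA and did not pass (limma, adjusted p = 0.451 and 0.387, 95% intervals -1.05 to 0.25 and -1.12 to 0.17). A second Atp1b2 probe set stayed at 4.12 to 4.59 on all 16 arrays, below the array median on each, and gives no measure of the gene.

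**Figure D2:**
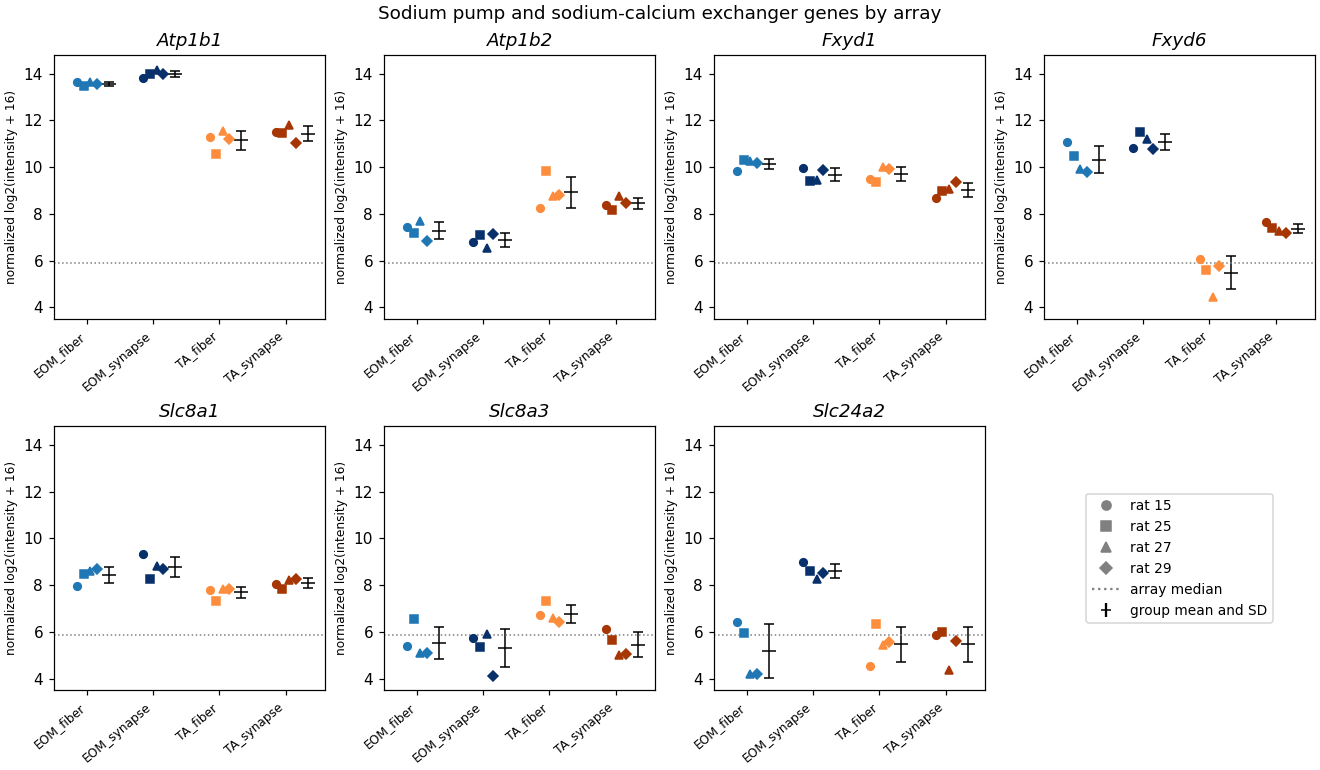
Normalized log2(intensity + 16) of each member on every array (points, with a shape for each rat) in the 4 groups, with the group mean and SD to the right; the dotted line is the array median of 5.88. Atp1b1 and Fxyd6 are higher and Atp1b2 lower in EOM than in TA without overlap, and Slc24a2 is high in EOM_synapse alone.

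Of the FXYD regulators, Fxyd6 differed most between the muscles of all 7 members. Fxyd6, which is well known from the nervous system and the inner ear, was at 11.05, 10.46, 9.94 and 9.80 in EOM_fiber and at 6.07, 5.62, 4.45 and 5.78 in TA_fiber, where only rat 15 exceeded the array median. EOM_synapse read 10.82, 11.50, 11.22 and 10.76, and TA_synapse 7.63, 7.39, 7.26 and 7.18, between TA_fiber and EOM and overlapping neither. The muscle difference was 4.83 ± 0.30 in fibre and 3.71 ± 0.30 at the junction (limma, adjusted p = 4.37e-07 and 2.78e-06, 4 of 4 rats). With TA_fiber this dim, the size in fibre depended on the pseudocount, at 5.58 with 1 and 3.80 with 64. At the TA junction Fxyd6 rose by 1.89 ± 0.30 over TA fibre in 4 of 4 rats (limma, adjusted p = 0.000907), or by 2.51 with a pseudocount of 1 and 1.17 with 64. At the EOM junction the difference was 0.76 ± 0.30, higher in 3 of 4 rats, and did not pass (limma, adjusted p = 0.121), except with a pseudocount of 64 (adjusted p = 0.0198). The difference between these differences, -1.12 ± 0.42, was negative in 4 of 4 rats and did not pass either (limma, adjusted p = 0.31), so the rise was not shown to differ between the muscles. Schwann cell markers rose at both junctions beside it: 7 of 9 tested in each muscle, and their summed intensity went from 554 to 817 in TA_fiber to 3547 to 5789 in TA_synapse. In EOM the same sum went from 1845 to 2807 in EOM_fiber to 7507 to 12734 in EOM_synapse. Fibroblast markers rose at the junction too, 4 of 9 in EOM and 7 of 9 in TA. The part of these cells in the Fxyd6 values was not tested.

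Fxyd1, which encodes phospholemman, the main FXYD protein of heart and skeletal muscle and a target of protein kinases, was bright in all 4 groups and differed little. It was at 9.83, 10.31, 10.26 and 10.16 in EOM_fiber, 9.49, 9.37, 9.99 and 9.92 in TA_fiber, 9.95, 9.38, 9.47 and 9.88 in EOM_synapse, and 8.69, 8.97, 9.06 and 9.38 in TA_synapse. The neighbouring groups in this order of means overlapped, except that TA_synapse lay just below EOM_synapse. The muscle difference at the junction, 0.65 ± 0.21 or 1.57-fold in 4 of 4 rats, passed narrowly (limma, adjusted p = 0.049). This call was lost when any of 12 single arrays was left out (adjusted p = 0.0516 to 0.162), that is, all but EOM_fiber 15, EOM_fiber 25, TA_fiber 25 and EOM_synapse 27. It was also lost with arrays centred on a common median (adjusted p = 0.18), on values as deposited (0.0643) and without the rat as a block in the fit (0.0611). Leaving out any 1 of the 4 rats ended it as well (adjusted p = 0.0816 to 0.218). In fibre the difference was 0.44 ± 0.21 in 4 of 4 rats (adjusted p = 0.174, 95% interval -0.00404 to 0.89). Fxyd1 was lower at the junction than in fibre by -0.67 ± 0.21 in TA, in 4 of 4 rats, and by -0.47 ± 0.21 in EOM, in 3 of 4, neither past the threshold (limma, adjusted p = 0.0579 and 0.181). The TA value passed without EOM_fiber 25, without EOM_synapse 15, on values as deposited, with a pseudocount of 64 and with the stricter filter, at an adjusted p of 0.0271 at the lowest.

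Of the Slc8 exchangers, Slc8a1 was higher in EOM in both regions, and Slc8a3 was lower in EOM fibre and at the TA junction. Slc8a1, the exchanger of heart muscle that many other cells also make, was at 7.98, 8.47, 8.59 and 8.71 in EOM_fiber and at 7.78, 7.34, 7.83 and 7.82 in TA_fiber. EOM_synapse read 9.34, 8.27, 8.81 and 8.70 and TA_synapse 8.04, 7.83, 8.22 and 8.27, so that each group overlapped with its neighbour in the order of means, while EOM_fiber and TA_fiber did not overlap. Slc8a1 was higher in EOM by 0.74 ± 0.22 in fibre and by 0.69 ± 0.22 at the junction, 1.67-fold and 1.61-fold, in 4 of 4 rats (limma, adjusted p = 0.0376 and 0.0494). The fibre call was lost without EOM_fiber 25, 27 or 29, TA_fiber 15, 25, 27 or 29, EOM_synapse 27 or TA_synapse 15 (adjusted p = 0.0502 to 0.108), and with arrays centred on a common median in place of quantile normalization (0.138). Leaving out rat 25, 27 or 29 ended it too (adjusted p = 0.134 to 0.162). The junction call was lost without any array but EOM_fiber 15 and EOM_fiber 25 (adjusted p = 0.0539 to 0.164), with centred arrays (0.11) and without the rat as a block in the fit (0.0633). Leaving out any 1 of the 4 rats ended the junction call as well (adjusted p = 0.0849 to 0.143). The junction minus fibre differences were 0.34 ± 0.22 in EOM, in 2 of 4 rats, and 0.39 ± 0.22 in TA, in 4 of 4 (limma, adjusted p = 0.372 and 0.32). A second Slc8a1 probe set was below the array median on all 16 arrays and ran the other way between the junctions, at 4.36 to 4.49 in EOM_synapse and 4.67 to 5.61 in TA_synapse, without a test.

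Slc8a3, the family member most associated with skeletal muscle and brain, was dim, and TA_fiber was the only group in which all 4 arrays exceeded the array median. In each other group 1 array did, so Slc8a3 met the filter of 4 arrays only through the group where it was high. With the stricter filter of 8 arrays it was not tested. Its calls are among the 5 of 7 in fibre and the 2 of 7 within TA given above. It was at 6.73, 7.31, 6.61 and 6.43 in TA_fiber, against 5.40, 6.55, 5.11 and 5.10 in EOM_fiber. The junction groups read 5.75, 5.37, 5.93 and 4.13 in EOM_synapse and 6.14, 5.65, 5.01 and 5.05 in TA_synapse. TA_fiber overlapped with EOM_fiber through rat 25 alone and did not overlap with the junction groups. Slc8a3 was lower in EOM_fiber than in TA_fiber (-1.23 ± 0.32) and in TA_synapse than in TA_fiber (-1.31 ± 0.32), 2.35-fold and 2.48-fold, in 4 of 4 rats (limma, adjusted p = 0.019 and 0.0186). Both comparisons share the TA_fiber arrays. Leaving out EOM_fiber 15, EOM_fiber 27 or TA_fiber 29 ended the muscle call (adjusted p = 0.061 to 0.0669), as did leaving out rat 15, 27 or 29 (0.0533 to 0.0699). The junction call was lost without TA_fiber 29, TA_synapse 25 or TA_synapse 27 (adjusted p = 0.0628 to 0.0709), and without rat 25, 27 or 29 (0.0578 to 0.0788). Without the 3 arrays of highest median both differences shrank, to -0.99 and -1.10 (adjusted p = 0.126 and 0.112). Without the rat as a block in the fit the adjusted p was 0.0506 and 0.0511. With a pseudocount of 1 they were -1.65 and -1.75 (adjusted p = 0.11 and 0.119). Between the junctions the difference was -0.17 ± 0.32 and within EOM -0.24 ± 0.32 (limma, adjusted p = 0.777 and 0.688), and the interaction, 1.06 ± 0.45, was not called (adjusted p = 0.4). Of 14 fibre genes, 2 fell at the TA junction, Mb (-1.04) and Myh1 (-0.997), and none rose. In the same comparison 3 of 9 endothelial markers fell, Kdr (-0.76), Emcn (-0.80) and Esam (-0.93), with none higher. Of 9 smooth muscle and pericyte markers, Rgs5 (-0.92) and Pdgfrb (-1.03) fell and Mcam (1.84) rose. The part of these cells in the Slc8a3 value was not tested.

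Slc24a2, an exchanger known from neurons and cone photoreceptors, was high in 1 group. It was at 9.01, 8.60, 8.27 and 8.53 in EOM_synapse of rats 15, 25, 27 and 29, well above the array median. In EOM_fiber it was at 6.42, 5.95, 4.20 and 4.18, in TA_fiber at 4.53, 6.34, 5.43 and 5.57, and in TA_synapse at 5.88, 6.003, 4.39 and 5.62, where 5 of these 12 arrays exceeded the array median. EOM_synapse overlapped with no other group, and the other 3 overlapped among themselves. The deposited intensity was 315 to 510 in EOM_synapse and 2.45 to 85.5 in the other groups. At the EOM junction Slc24a2 rose by 3.41 ± 0.43 over EOM fibre in 4 of 4 rats (limma, adjusted p = 0.000238). Since EOM_fiber exceeded the array median on only 2 of 4 arrays, the size depended on the pseudocount, at 4.77 with 1 and 2.28 with 64. At the TA junction the difference was 0.01 ± 0.43, with a 95% interval of -0.93 to 0.94 (limma, adjusted p = 0.996, positive in 2 of 4 rats). The EOM junction exceeded the TA junction by 3.13 ± 0.43 in 4 of 4 rats (limma, adjusted p = 0.000284), or by 3.86 and 2.20 with those pseudocounts. The fibre groups differed by -0.28 ± 0.43 (adjusted p = 0.718, 3 of 4 rats).

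The junction differences of Slc24a2 in the 2 muscles differed from each other by 3.41 ± 0.61, with per-rat values of 1.23, 2.99, 5.11 and 4.30 in rats 15, 25, 27 and 29 (limma, adjusted p = 0.0176). This call was lost without EOM_synapse 27 (3.27, adjusted p = 0.0562), without rat 25, 27 or 29 (adjusted p = 0.0864 to 0.175) and with a pseudocount of 1 (4.81, adjusted p = 0.168). A second, dimmer probe set of Slc24a2 also had its highest mean in EOM_synapse: 6.44, 6.34, 6.49 and 5.72 there, 4.12 to 4.70 in EOM_fiber and 4.17 to 4.89 in TA_synapse. It lay above the array median on 3 arrays, all of EOM_synapse, and was not tested. Its TA_fiber arrays reached 5.80, just above the lowest EOM_synapse array, and its difference between TA junction and TA fibre was -0.76, unlike the brighter probe set. Of 7 retina markers with a probe set none passed the filter, and their summed intensity was 38.1 to 103 in EOM_synapse and 25.4 to 183 over the other groups. Of 12 axon and neuron markers 3 passed the filter, Nefm, Gap43 and Tubb3, and none of these was called between the EOM junction and EOM fibre, while Snap25, Syt1, Chat and Slc18a3 stayed below it. Schwann cell markers rose at both junctions, as given above, and 0 of 9 were called in the interaction. Against EOM fibre, 3 of 14 fibre genes fell at the EOM junction, Myh2 (-2.22), Myh7 (-1.84) and Actn3 (-1.03). So did 2 of 3 extraocular myosins, 4 of 9 endothelial markers and 1 of 7 macrophage markers, with none higher in these lists. Of 9 smooth muscle and pericyte markers 3 fell and 1 rose. No part of these cells in the Slc24a2 value was tested.

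**Figure D3:**
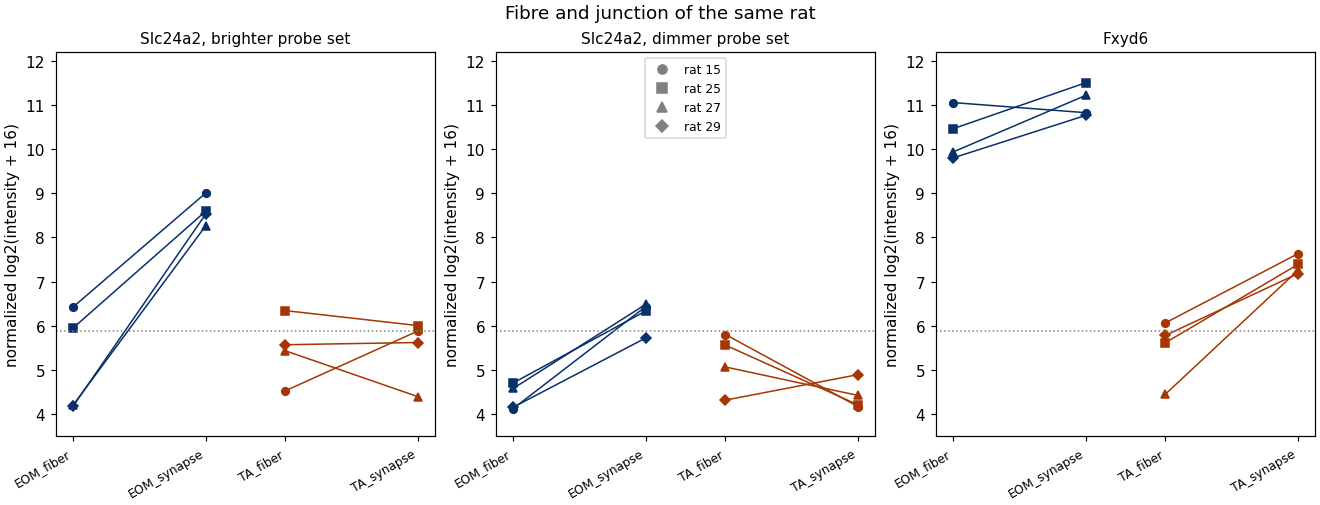
Normalized log2(intensity + 16) in fibre and junction captures of the same rat (lines), EOM in blue and TA in brown, for the brighter and the dimmer Slc24a2 probe set and for Fxyd6; the dotted line is the array median. The Slc24a2 lines rise in all 4 rats in EOM and in 2 of 4 in TA for the brighter probe set, and Fxyd6 rises in all 4 rats in TA.

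Most other genes of the pump and exchanger families did not pass the threshold. The list of other sodium pump family genes held 18, of which 6 were tested. Between the fibre groups 1 of 6 was called, Nkain1, whose protein binds the beta subunit, lower in EOM by -1.87 ± 0.33 (limma, adjusted p = 0.00175, 4 of 4 rats). Between the junctions and within EOM 0 of 6 were called. Within TA 1 of 6 was, Atp1b4, which in placental mammals encodes a protein of the muscle nuclear envelope rather than a pump subunit. Atp1b4 was at 7.29 ± 0.65 in TA_fiber and 5.51 ± 0.82 in TA_synapse (-1.79 ± 0.47, adjusted p = 0.0275), a call lost without any of the 4 TA_fiber arrays, TA_synapse 27 or TA_synapse 29 (adjusted p = 0.0501 to 0.0959). The third beta subunit, Atp1b3, was at 8.18 ± 0.12 in EOM_fiber, 8.24 ± 0.39 in TA_fiber, 8.96 ± 0.36 in EOM_synapse and 8.75 ± 0.37 in TA_synapse. Its muscle differences were -0.06 ± 0.26 and 0.22 ± 0.26 (limma, adjusted p = 0.913 and 0.62), the fibre value turning to 0.05 on values as deposited and to 0.15 without the 3 arrays of highest median. At the EOM junction it was higher by 0.78 ± 0.26 in 4 of 4 rats (adjusted p = 0.0706), and this passed with arrays centred on a common median (adjusted p = 0.038), with the rat as a random block (0.0483) and with a pseudocount of 64 (0.0264). The list's median difference was -0.48 in fibre and 0.07 at the junction, against 0.03 and 0.01 over all genes.

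Among other calcium exporters, the plasma membrane calcium pump Atp2b1 had a junction difference in EOM. Atp2b1 was at 8.98 ± 0.26 in EOM_fiber and 10.65 ± 0.50 in EOM_synapse, a rise of 1.68 ± 0.21 in 4 of 4 rats (limma, adjusted p = 0.000232), and its TA difference, 0.62 ± 0.21 in 4 of 4 rats, did not pass (adjusted p = 0.085). The interaction was not called (1.06 ± 0.30, adjusted p = 0.141). Between the junctions it was higher in EOM (0.80 ± 0.21, adjusted p = 0.0197), a call lost without EOM_synapse 27, EOM_synapse 29, TA_synapse 15 or TA_synapse 29 (adjusted p = 0.0517 to 0.0809). It was 1 of 2 calcium pump genes tested, and the other, Atp2b3, was called in no comparison. Of 3 other exchanger genes tested, Slc8a2, Slc24a3 and the mitochondrial exchanger Slc8b1, 0 were called between the muscles. Slc8b1 had junction differences of 0.95 ± 0.31 in EOM (adjusted p = 0.0718) and 1.04 ± 0.31 in TA (adjusted p = 0.0495), each in 4 of 4 rats, with an interaction of -0.093 ± 0.44 (adjusted p = 0.969). The TA value was called, a call lost when any of 12 single arrays was left out, among them all 4 of EOM_synapse and of TA_synapse, EOM_fiber 27, and TA_fiber 15, 25 and 27 (adjusted p = 0.051 to 0.165).

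In the list of ion cotransporters and exchangers, 10 of 18 genes were tested, and between the fibre groups 5 rose and 1 fell in EOM. The sodium-phosphate cotransporter Slc20a2 was at 10.60 ± 0.29 in EOM_fiber and 8.74 ± 0.28 in TA_fiber (1.86 ± 0.21), and it differed by 2.24 ± 0.21 at the junction (limma, adjusted p = 7.89e-05 and 1.15e-05, 4 of 4 rats). Slc12a7, a potassium-chloride cotransporter that carries no sodium, was higher in EOM fibre by 2.15 ± 0.44, and the sodium-bicarbonate cotransporter Slc4a4 lower by -1.19 ± 0.23 (adjusted p = 0.00468 and 0.00338). The Slc12a7 call was lost in a fit to the fibre arrays alone (adjusted p = 0.0727), and the Slc4a4 call with its probe set of highest variance (-0.79, adjusted p = 0.069). The sodium-proton exchanger Slc9a2 was higher in EOM between the junctions by 1.22 ± 0.24 (adjusted p = 0.00354). At the junction 3 rose and 2 fell. The remaining calls of this list were smaller: Slc12a4 (1.04), Slc9a2 (0.78) and Slc20a1 (0.52) in fibre, and Slc20a1 (0.63), Slc12a2 (-0.73) and Slc4a4 (-0.71) at the junction. They were lost when any of 4, 12, 15, 3, 10 and 14 of the 16 single arrays was left out, in that order, with an adjusted p of 0.0501 to 0.176. Within EOM 2 of 10 rose at the junction, Slc9a2 by 1.04 ± 0.24 and Slc20a1 by 0.64 ± 0.16, and within TA 1 of 10, Slc12a7 by 1.46 ± 0.44 (adjusted p = 0.0144, 0.0239 and 0.0496). These were lost without EOM_synapse 25 for Slc9a2, without any of 5 single arrays for Slc20a1, and without any of 13 for Slc12a7. The list's median difference was 0.55 in both regions, against 0.03 and 0.01 over all genes.

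**Figure D4:**
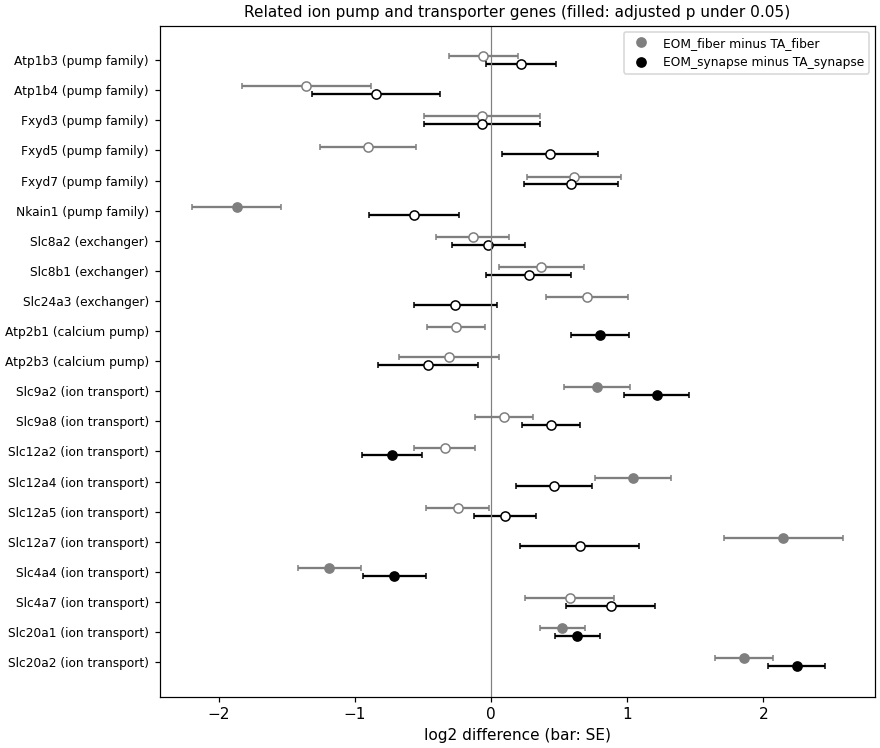
Log2 difference of EOM minus TA (points) with its SE (bars) in fibre and at the junction for the 21 tested genes of the 4 lists of related pumps and transporters; filled points have an adjusted p under 0.05. Slc20a2 lies near 2 in both regions, and no other beta or FXYD gene is filled.

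Markers of other cell types also differed between the muscles, beside the muscle differences of Atp1b1, Atp1b2, Fxyd6 and Slc8a1. In EOM fibre, 9 of 9 fibroblast markers tested were higher than in TA fibre, with a summed intensity of the 10 listed of 8019 to 25818 against 2342 to 7669, as were 3 of 9 Schwann cell markers (1845 to 2807 against 554 to 817), 2 of 3 axon markers, 4 of 7 macrophage markers and 2 of 9 endothelial markers, with none lower. At the junction the counts were 3 of 9 for fibroblasts, 3 of 9 for Schwann cells, 2 of 3 for axons, 0 of 7 for macrophages and 0 of 9 for endothelium. Smooth muscle and pericyte markers had 0 of 9 called in fibre and 1 lower at the junction, Acta2 (-0.95). Of the cardiac list, 3 of 4 genes tested were higher in EOM fibre, Myh6 (3.21), Pln (3.18) and Tnnt2 (2.80), genes that skeletal fibres can also make, while Nppa, Tnni3 and Ryr2 did not pass the filter. At the junction 3 of 4 were higher too, Myh6 (3.07), Pln (2.23) and Tnnt2 (1.46). Of 14 fibre genes 1 was higher and 3 lower in EOM fibre, and 0 were higher and 6 lower at the EOM than the TA junction, where their summed intensity was 100338 to 138229 against 211689 to 263914. The part of these cell types in the member values was not tested.

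The genes whose values over the 16 arrays were most like each member were found by Pearson's r, which here mostly reflects the differences among the 4 groups. They were the secreted Wnt antagonist Frzb (0.986), Lrig1 (0.972) and Slc6a6 (0.967) for Atp1b1, and Opa1 (0.939), Diaph1 (0.931) and Pgm2l1 (0.915) for Atp1b2. Nearest to Fxyd6 were Tmem229b (0.966), Armh4 (0.965) and Copa (0.959), and nearest to Fxyd1 were Smpx (0.921), Slc25a29 (0.91) and Fis1 (0.898). For Slc8a1 they were Fkbp9 (0.91), Col4a5 (0.902) and Pja2 (0.895), for Slc8a3 Palmd (0.888), Asah2 (0.867) and Cyp1a1 (0.851), and for Slc24a2 Zcchc18 (0.89), Prom2 (0.884) and Lix1 (0.871). Atp1b1 thus had the closest neighbour and Slc8a3 the least close, and the 2 dim members, Slc8a3 and Slc24a2, had the lowest values.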

How the data were processed

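RNA of 16 laser captures was amplified in 2 cycles and hybridised to Affymetrix rat arrays, per the labels' protocols. The deposited values are probe set intensities on a linear scale; the summarisation software and its settings are not given in the sources used here, and every array's trimmed mean (2% off each end) lay near 150.07. The 57 control probe sets were left out. Of 31099 probe sets, 20826 were annotated with 1 gene, 436 with several (not named) and 9780 were not listed. Symbols were updated through Entrez IDs to the RefSeq annotation of GRCr8.

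Intensities were transformed as log2(intensity + 16) and quantile-normalized. Probe sets had to exceed the array median on at least 4 arrays, and each gene was represented by its probe set of highest mean. The 4 groups were fitted together in limma 3.58.1 (R 4.3.3) with the rat as a block (9 residual degrees of freedom), and p-values were adjusted by the Benjamini-Hochberg method. The number of arrays limits the precision. The pairing rests on the titles, whose numbers recur in each group, and on the 4 rats of the study design. Over 24 pairs of arrays with the same number, deviations from the group means correlated at 0.112 on average (-0.0666 to 0.245). Among the arrays of the other groups, 14 of 16 arrays lay closest to an array of their own number. Pairs with different numbers are not given here, so 0.112 has no value to be set against. Captures of a rat are separate samples, but each group holds 1 capture per rat. The fit was also run on simulated arrays with known changes. These were drawn without a rat effect, so that run does not test the rat block or the pairing.

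The members and gene lists were chosen with earlier results of these data known. Named were all members, related genes past the threshold (up to 6 per list and comparison) with Atp1b3 and Atp1b4 in any case, up to 3 markers per list and comparison, and the 3 genes most like each member by Pearson's r. Promoters were taken from RefSeq (GRCr8), where 6 of 7 members had an entry. Alternatives were the normalization, pseudocount, filter, probe set, block, arrays in the fit, and leaving out each array or rat. Leaving out the 3 arrays of highest median was chosen after seeing the data.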

Additional observations from a re-analysis of the deposited data

Results flagged for a closer look

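Slc24a2 had a junction difference in EOM that exceeded that in TA by 3.41 ± 0.61 (limma, adjusted p = 0.0176, the same sign in 4 of 4 rats), a difference between the muscles in the same contrast, with 8.60 ± 0.31 in EOM_synapse and 5.19 ± 1.17, 5.47 ± 0.74 and 5.47 ± 0.74 in EOM_fiber, TA_fiber and TA_synapse.

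Slc8a1 in TA_fiber of rat 25 read 7.34, apart from 7.78, 7.83 and 7.82 on the other arrays of the group. The gap was 0.893 of the range of the group, past Dixon's critical value at the 95% level. This check was made for each of the 7 members in each of the 4 groups, without adjustment for their number. No other array passed it.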

How the results depend on the processing

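Of 15 member differences called, 9 stayed on the same side of the threshold under each alternative: those of Atp1b1, Atp1b2 and Fxyd6 between the muscles, Fxyd6 at the TA junction, and Slc24a2 at the EOM junction and between the junctions. The other 6 (Fxyd1, Slc8a1, Slc8a3 and the Slc24a2 interaction) lost the call under at least 1, and none of the 15 changed sign. Members called between the junctions fell from 6 to 4 with no replicate block, only the arrays compared, median centring, a pseudocount of 1, no filter and the probe set of highest variance. Members called at the TA junction fell from 2 to 1 with no replicate block, with a pseudocount of 1 and without the 3 arrays of highest median, the Slc24a2 interaction call went to 0 with a pseudocount of 1, and a pseudocount of 64 gave 2 at the EOM junction. Leaving out single arrays or rats gave 3 to 5 members in fibre, 4 to 6 between the junctions, 1 to 3 at the TA junction and 0 to 1 in the interaction. Uncalled values changed sign: as deposited for Atp1b1 at the EOM junction (-0.082) and in the interaction (-0.24) and for Atp1b3 in fibre (0.047), with median centring for Slc24a2 at the TA junction (-0.025) and for Atp1b1 (-0.078) and Slc8a1 (0.064) in the interaction, with a pseudocount of 1 for Slc24a2 at the TA junction (-0.036), and without the 3 arrays for the Atp1b2 interaction (-0.069) and Atp1b3 in fibre (0.15). Leaving out arrays or rats gave -1.001 to 0.092 for Slc24a2 in fibre and -0.54 to 0.35 at the TA junction, -0.53 to 0.089 for Slc8a3 between the junctions and -0.60 to 0.063 at the EOM junction, and -0.23 to 0.12 and -0.046 to 0.40 for Atp1b3 in fibre and between the junctions. In the interaction it gave -0.035 to 0.29 for Atp1b1, -0.42 to 0.47 for Atp1b2, -0.040 to 0.45 for Fxyd1 and -0.44 to 0.16 for Slc8a1. Over all genes, calls moved from 1620 to 582 in fibre and from 1066 to 606 at the TA junction with only the arrays compared. With median centring they moved from 1712 to 1139 between the junctions, from 1055 to 689 at the EOM junction and from 96 to 56 in the interaction, which had 46 with a pseudocount of 1 and 218 with 64. Leaving out arrays or rats gave 976 to 1717, 947 to 1940, 491 to 1146, 602 to 1210 and 23 to 105 in the order above of fibre, between the junctions, EOM junction, TA junction and interaction. The causes were not tested. Signal limits Slc8a3 and Slc24a2, which lay near or below the array median in 3 of 4 groups.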

Other observations

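Slc24a1, the rod photoreceptor relative of Slc24a2, did not pass the filter and was looked at after its values were seen. It was at 6.12, 5.26, 6.63 and 6.61 in EOM_synapse of rats 15, 25, 27 and 29, where 3 arrays exceeded the array median. It was at 4.18, 4.21, 4.18 and 5.09 in EOM_fiber, at 4.33, 4.19, 4.27 and 5.42 in TA_fiber, and at 4.29, 4.17, 4.35 and 5.40 in TA_synapse, and rat 29 was the highest in each of these 3 groups.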
